A study of Mus musculus with 12 samples.

Results

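The trophectoderm regulators and keratins followed here are 10 genes, the transcription factors Cdx2, Eomes, Gata2, Gata3, Tfap2c, Elf5, Hand1 and Tead4 and the keratins Krt8 and Krt18. They were chosen by name, as genes that mark or drive the trophectoderm, with earlier results of these data known. Their probes were found through the transcript accession printed on the array. All 10 had a probe that could be tested, among 29839 genes tested in all. RNA came from E14 cells, a mouse embryonic stem (ES) cell line kept without feeder cells in serum and LIF, 48 hr after transfection with esiRNAs, pools of short interfering RNAs that knock down (KD) one mRNA. The 6 groups, with 2 arrays each, were EGFP KD (the control, with esiRNAs against a jellyfish fluorescent protein), Chd4 KD, Mbd3 KD, Mbd2 KD, Tet1 KD and Dnmt1 KD. By their labels they differed in the esiRNA alone, while their arrays were also spread unevenly over slides. Every group was thus a transient esiRNA treatment of one cell line. The study's methods call the duplicates biological, while the labels do not say how they were made, and the p-values rest on the spread between 2 arrays a group.

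The trophectoderm is the outer epithelium of the blastocyst, from which the placenta grows, and ES cells stand for the inner cells that do not normally take that path. Tead4, with its coactivator Yap1, switches on Cdx2 and Gata3 in the outer cells, and Cdx2, Eomes, Elf5 and Tfap2c then maintain trophoblast stem cells. Keratin 8 and keratin 18 pair with each other to form the filaments of simple epithelia such as the trophectoderm. Dnmt1 copies DNA methylation at cell division, Tet1 oxidises methylated cytosine, Mbd2 and Mbd3 are methyl-CpG binding domain proteins, and Chd4 is the remodelling ATPase of the NuRD complex that contains Mbd2 or Mbd3. Each KD was set against EGFP KD to ask how these mRNAs respond when one of those proteins is depleted.

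Since several of the depleted proteins act on or bind methylated DNA, the 250 bases before the annotated start are shown first for 4 members. Krt18 and Krt8 are close neighbours, Gata3 gave an Mbd3 KD call, and Elf5 is known for a promoter that is methylated in ES cells and unmethylated in trophoblast. The sequences are from RefSeq (GRCm38.p6), 5′ to 3′ on the gene's strand, and capitals mark each CpG.
Krt18, chr15:102027966-102028215, plus strand: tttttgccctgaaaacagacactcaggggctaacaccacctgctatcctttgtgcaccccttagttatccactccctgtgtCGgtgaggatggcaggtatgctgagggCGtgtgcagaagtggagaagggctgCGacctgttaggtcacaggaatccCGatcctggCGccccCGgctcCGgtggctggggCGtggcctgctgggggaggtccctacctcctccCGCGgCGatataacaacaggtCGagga
Krt8, chr15:102004343-102004592, minus strand: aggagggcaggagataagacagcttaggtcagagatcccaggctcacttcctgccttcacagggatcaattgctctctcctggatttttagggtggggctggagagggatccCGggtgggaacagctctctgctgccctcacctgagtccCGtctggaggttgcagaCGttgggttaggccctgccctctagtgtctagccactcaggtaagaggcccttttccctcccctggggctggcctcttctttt
Gata3, chr2:9878601-9878850, minus strand: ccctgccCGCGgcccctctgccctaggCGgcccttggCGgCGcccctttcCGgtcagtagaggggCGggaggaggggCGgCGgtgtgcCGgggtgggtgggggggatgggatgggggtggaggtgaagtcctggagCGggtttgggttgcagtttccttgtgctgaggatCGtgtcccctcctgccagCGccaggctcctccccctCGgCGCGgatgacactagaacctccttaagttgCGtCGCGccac
Elf5, the first of its starts, chr2:103411848-103412097, plus strand: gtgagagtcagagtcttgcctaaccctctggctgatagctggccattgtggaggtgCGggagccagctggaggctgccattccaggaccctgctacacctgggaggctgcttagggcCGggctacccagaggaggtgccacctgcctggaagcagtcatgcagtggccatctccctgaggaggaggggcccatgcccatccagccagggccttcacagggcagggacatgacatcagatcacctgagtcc

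Windows were found for 7 of the 10 members, Gata2 and Elf5 having 2 each, which makes 9 windows, and none was at hand for Tfap2c, Hand1 and Tead4. The Krt18 window held 12 CpGs and the Krt8 window 3, although the genes lie 23873 bases apart on chromosome 15. CpG observed over expected, the CpG count relative to the C and G content, was 0.527 before Krt18 and 0.143 before Krt8, against a median of 0.373 over 32851 windows of 27025 genes. The Elf5 window shown had the fewest CpGs of the 9, 2, and a ratio of 0.0814, which left 12.3% of all windows below it. Its second start, at chr2:103423818-103424067, had 8 CpGs and a ratio of 0.402. Gata3 had 19 CpGs and a ratio of 0.633, and 80.3% of all windows held fewer CpGs. Both Gata2 windows, with 22 and 24 CpGs, were the richest, at ratios of 0.785 and 0.741, while Cdx2 had 13 (ratio 0.690) and Eomes 8 (ratio 0.621). The keratin pair thus falls on either side of the median window, and the windows of Cdx2, Eomes, Gata2 and Gata3 and the second Elf5 window lie above it.

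**Figure D1:**
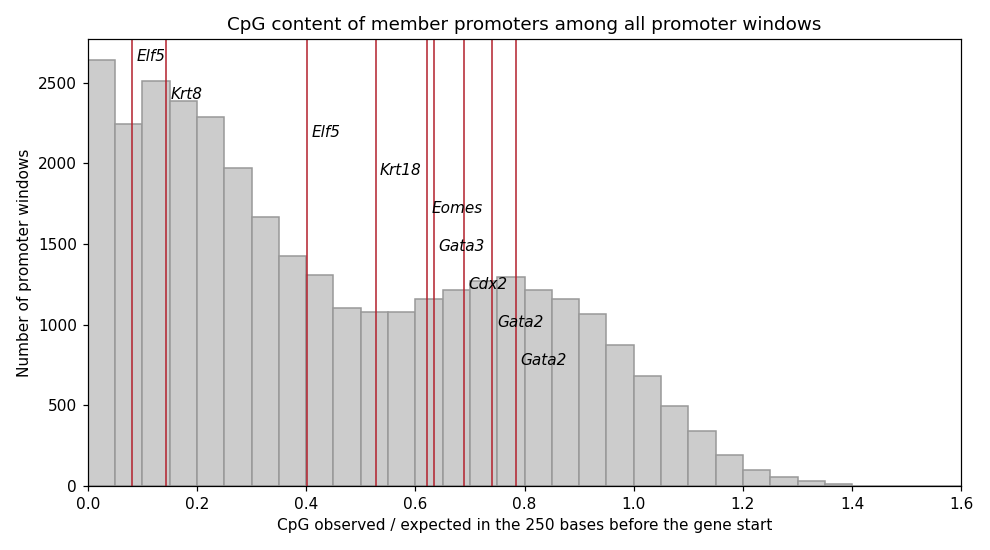
Histogram of CpG observed over expected (x axis, no unit) in the 250 bases before the gene start for 32851 RefSeq windows (y axis, number of windows), with a red line for each of the 9 member windows. Elf5 (0.0814) and Krt8 (0.143) sit in the CpG-poor peak and Gata2 (0.785) in the CpG-rich one.

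Short motifs of the member families were searched in the same 250 bases on both strands. GCCNNNGGC, the letters bound by AP-2 factors such as Tfap2c, was found in 4 of the 9 windows (Cdx2, Gata3, Krt18 and the second Gata2 window), or 44.4%, and in 13.7% of all windows. GGAATG, the TEAD motif, was in the first Elf5 window and the second Gata2 window and in 12.6% of all windows. The letters AGATAA, bound by GATA factors, were in the Krt8 window alone among the 9 and in 10% of all. For the ETS family, CCGGAA was in the Gata3 window alone and in 12% of all. These are matches of letters, and the windows differ in GC content, from 46.4% before Eomes to 74% before the second Gata2 start.

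The values below are log2 signals, the scanner's background-corrected intensity divided by the 75th percentile of its array. Zero is therefore a fairly bright probe, and because probes differ in efficiency, a value is compared between arrays and never between genes. The percentile itself was 1784.5 to 2451.6 intensity units, and an array had 76.9% to 95.2% of its probes well above background. Signals under the highest detection limit of the 12 arrays were set to that limit, a floor at log2 -4.86. Differences from EGFP KD were fitted with limma over all 12 arrays, and a gene was called at a Benjamini-Hochberg adjusted p under 0.05 over the 29839 genes. The slides were 3, with 4 arrays each. The first controls and first Mbd3, Mbd2 and Dnmt1 KD replicates were on slide 1. Slide 2 carried the other control array, replicate 1 of Chd4 KD and both of Tet1 KD, and slide 3 carried the second Chd4, Mbd3, Mbd2 and Dnmt1 KD replicates without a control.

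The targeted mRNAs checked the labels. Relative to the EGFP KD mean, log2 signal was -1.64 and -2.35 for Dnmt1 on the Dnmt1 KD arrays, -3.07 and -2.85 for Mbd3 on the Mbd3 KD arrays, and -1.55 and -1.01 for Chd4 on the Chd4 KD arrays. Tet1 was at -0.02 and -1.81 on the arrays labelled Tet1 KD. The dimmer Mbd2 probe was at -0.24 and -1.77 on those labelled Mbd2 KD, and its brighter probe was at -0.08 and -0.07. Replicate 1 of both groups thus went against its label. The other group's target was low on each of these arrays: Tet1 was at -1.79 and -1.18 (2 probes) on Mbd2 KD replicate 1, and the dimmer Mbd2 probe was at -1.75 on Tet1 KD replicate 1. Such values would also be seen if these arrays had been exchanged, which was not tested. The labels were kept, results were also computed without both arrays, and every value below for Tet1 KD or Mbd2 KD is for the arrays so labelled. Of the ES cell markers, 8 of 8 were tested and 0 were called in any KD, and their summed scaled signal ran from 122.5 to 163 over the 12 arrays. The median log2 difference over all genes was between -0.03 and 0.09 in the 5 KDs.

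Tfap2c rose in both Chd4 KD and Mbd3 KD, Krt18 rose in Chd4 KD, and Gata3 was called lower in Mbd3 KD. In Chd4 KD 2 of 10 members passed the test, against 3.19% of all genes, and both rose. In Mbd3 KD 2 of 10 passed, against 0.764% of all genes, 1 up and 1 down. The latter, Gata3, was tested only because its probe was well above background on both arrays of EGFP KD and of Chd4 KD. Its low place in other KDs was favoured by that filter on dim probes. In the KDs of Mbd2, Tet1 and Dnmt1 0 of 10 passed, and so did 0% of all genes in each. The targeted mRNAs were thus uncalled there too, Dnmt1 in Dnmt1 KD among them (-1.99 ± 0.39, limma adjusted p = 0.37). A lack of calls in these KDs therefore does not show that the members were unchanged. Since the members were chosen with earlier results of these data known, the shares stand beside these counts as a description. Without the 2 arrays that went against their labels the count was 2 in Chd4 KD, against 1.71% of all genes, and 0 in each of the other KDs. In Mbd3 KD that setting called 0 of the 29839 genes, so its 0 is a loss of all calls. A slide block left 2 in Chd4 KD (4.34% of all genes) and 0 in Mbd3 KD (0.188%). At an unadjusted limma p under 0.05 the counts were 6 of 10 in Mbd3 KD (9.66% of all genes) and 2 in Chd4 KD (12.8%). They were 1 in each of Mbd2 KD (2.08%), Tet1 KD (2.85%) and Dnmt1 KD (4.73%), Gata3 in every case, which the filter favoured. The median log2 difference over the 10 members was 0.27 in Mbd3 KD and 0.25 in Chd4 KD, and it was -0.15 in Mbd2 KD, -0.12 in Tet1 KD and -0.20 in Dnmt1 KD. The samples were bulk RNA, in which more cells of a kind and more RNA per cell cannot be told apart.

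**Figure D2:**
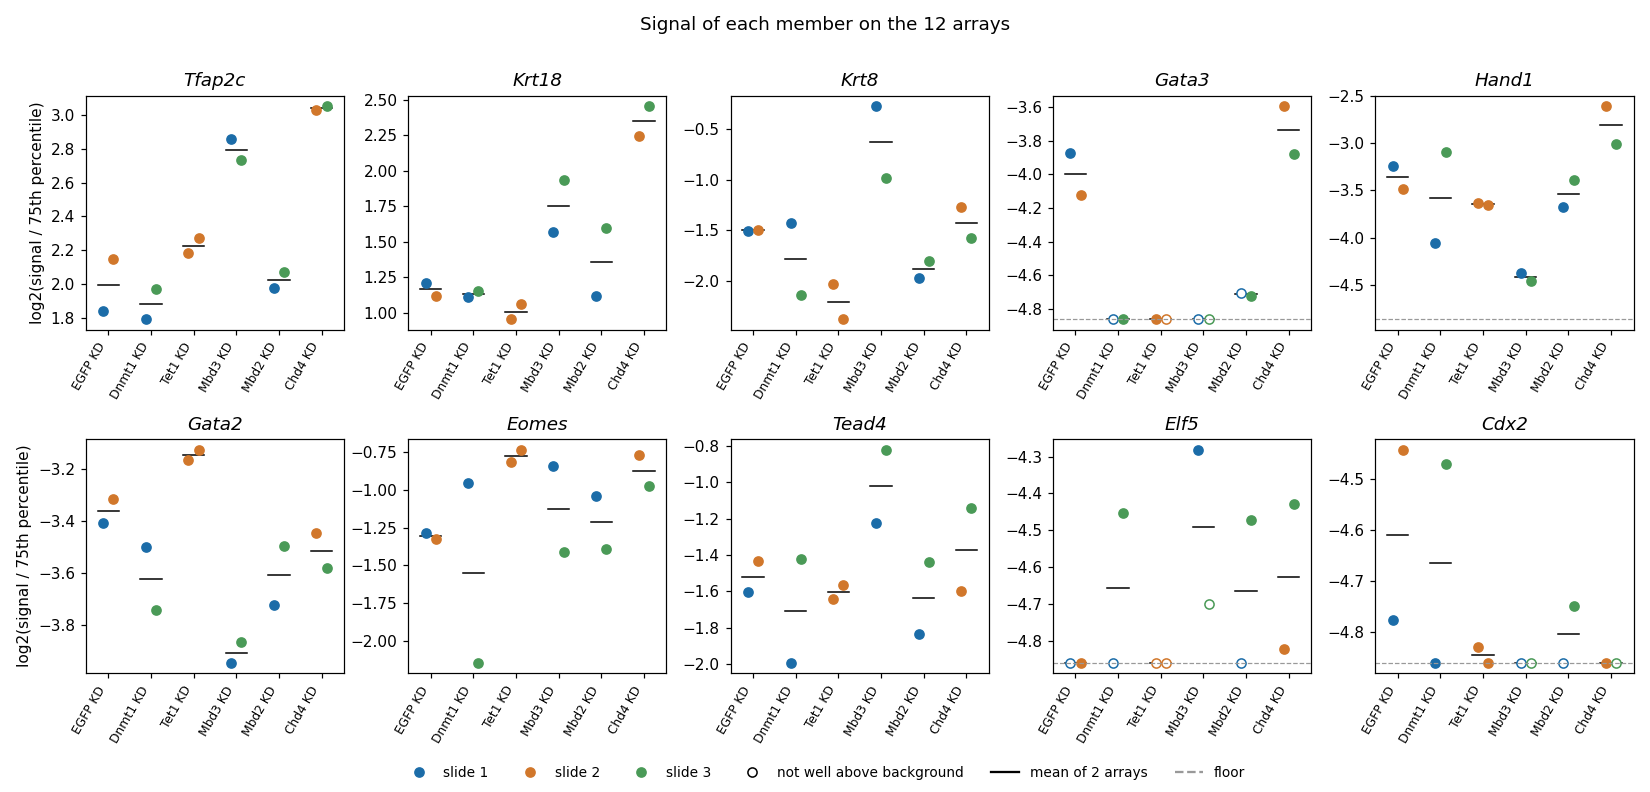
Log2 signal relative to the array's 75th percentile (y axis, one scale per gene) of the probe standing for each of the 10 members on the 2 arrays of each of the 6 groups (x axis), coloured by slide, with open circles where the probe was not well above background, a bar at the group mean and a dashed line at the floor. Tfap2c stands above all other groups on the 4 Mbd3 KD and Chd4 KD arrays, while 6 Gata3 values lie on the floor.

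Tfap2c encodes an AP-2 transcription factor of trophoblast stem cells and germ cells (chr2:172545678-172558622). Its log2 signal was 1.84 and 2.15 on the EGFP KD arrays, 3.03 and 3.05 on the Chd4 KD arrays and 2.86 and 2.74 on the Mbd3 KD arrays. The other 6 KD arrays lay between 1.79 and 2.27. The 4 arrays of both NuRD KDs were therefore the highest of the 12, with no overlap. The difference from EGFP KD was 1.05 ± 0.12 (SE, n = 2 and 2) in Chd4 KD, a 2.07-fold rise with a limma adjusted p of 0.0066. In Mbd3 KD it was 0.80 ± 0.12, a 1.74-fold rise with a limma adjusted p of 0.044. On the shared slides it was 0.88 in Chd4 KD (slide 2) and 1.02 in Mbd3 KD (slide 1).

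The rise in Chd4 KD stayed past the threshold in 21 of 24 alternatives and was lost under normexp background correction, with only the 4 arrays compared and without Chd4 KD replicate 2 (adjusted p = 0.054). The rise in Mbd3 KD kept its direction in 24 of 24 but its call in only 3, and the adjusted p over the others ran up to 0.51. With the slide as a block it was 0.85, with an adjusted p of 0.077. Tfap2c differed by 0.25 ± 0.12 between Chd4 KD and Mbd3 KD (limma adjusted p = 0.62, 95% interval -0.04 to 0.54). Between Mbd3 KD and Mbd2 KD the difference was 0.77 ± 0.12, with a limma adjusted p of 0.059, and it was 0.88 on slide 1 and 0.66 on slide 3. In the KDs of Dnmt1, Tet1 and Mbd2, the Tfap2c difference from EGFP KD was -0.11, 0.23 and 0.03.

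Krt18, the type I keratin of simple epithelia (chr15:102028216-102032026), had log2 signals of 1.21 and 1.12 in EGFP KD, 2.25 and 2.45 in Chd4 KD and 1.57 and 1.94 in Mbd3 KD. It was at 1.12 and 1.598 in Mbd2 KD, 0.96 and 1.06 in Tet1 KD, and 1.11 and 1.15 in Dnmt1 KD. Both Chd4 KD arrays stood above the other 10, and both Mbd3 KD arrays stood above EGFP KD, though one of them lay below an Mbd2 KD array. The difference in Chd4 KD was 1.18 ± 0.18 (SE, n = 2 and 2), a 2.27-fold rise with a limma adjusted p of 0.020, and 1.13 on slide 2. In Mbd3 KD it was 0.59 ± 0.18, with a limma adjusted p of 0.31 (95% interval 0.15 to 1.02). The Chd4 KD call held in 19 of 24 alternatives. It was lost with only the 4 arrays compared and without EGFP KD replicate 1, EGFP KD replicate 2, Chd4 KD replicate 1 or Chd4 KD replicate 2, where the adjusted p was 0.068 to 0.18.

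Krt8, the type II partner of Krt18 (chr15:101996711-102004342), did not follow the same order. Its log2 signal was -1.503 and -1.493 in EGFP KD, -0.28 and -0.99 in Mbd3 KD, and -1.27 and -1.58 in Chd4 KD. It was -1.97 and -1.80 in Mbd2 KD, -2.03 and -2.37 in Tet1 KD, and -1.43 and -2.14 in Dnmt1 KD. The Mbd3 KD arrays were the highest pair, and the Chd4 KD arrays lay on either side of the controls. The difference in Mbd3 KD was 0.87 ± 0.30 (limma adjusted p = 0.38), with 1.23 on slide 1, and in Chd4 KD 0.07 ± 0.30 (limma adjusted p = 0.999, 95% interval -0.64 to 0.79). Krt8 was -0.70 ± 0.30 against EGFP KD on the arrays labelled Tet1 KD, and both lay below both controls. The difference between Mbd3 KD and Mbd2 KD was 1.25 ± 0.30, with a limma adjusted p of 0.21.

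**Figure D3:**
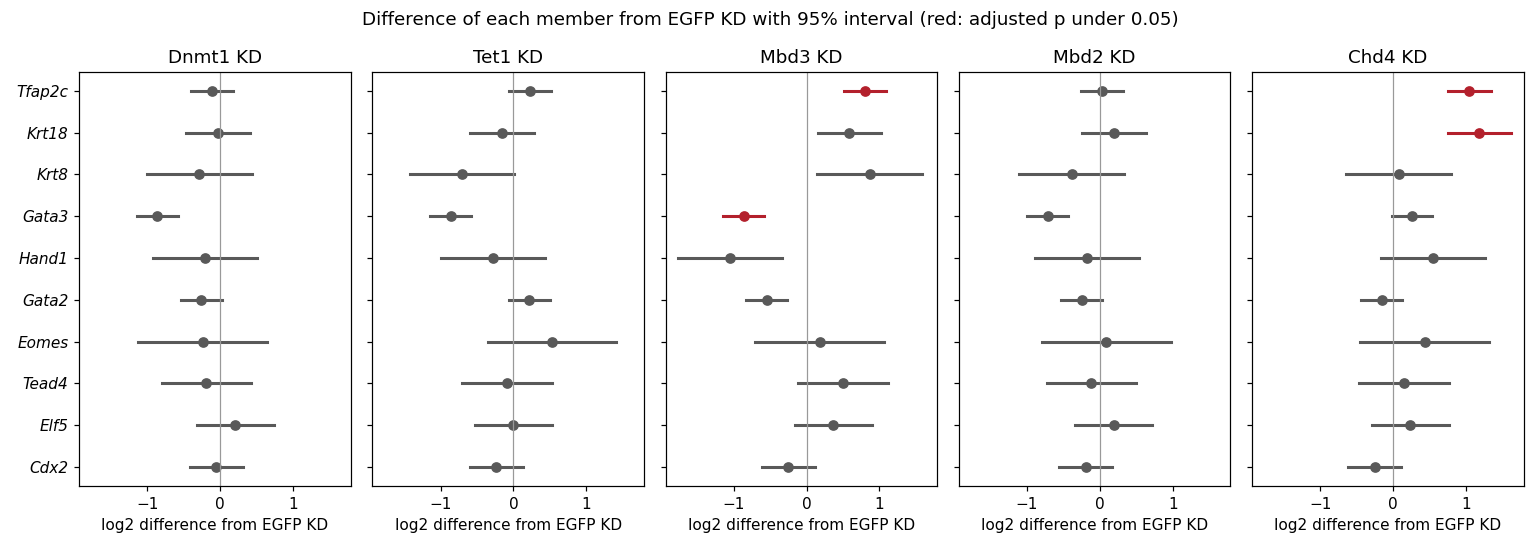
Log2 difference from EGFP KD (x axis) of the 10 members (y axis) in each of the 5 KDs, as points with the 95% interval of the limma fit as lines, in red where the adjusted p was under 0.05. Red points are Tfap2c (1.05) and Krt18 (1.18) in Chd4 KD and Tfap2c (0.80) and Gata3 (-0.86) in Mbd3 KD.

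Gata3, a GATA factor that acts beside Cdx2 downstream of Tead4 (chr2:9857078-9887953), was close to background on every array. Its log2 signal was -3.87 and -4.12 in EGFP KD and -3.59 and -3.88 in Chd4 KD, where the probe was well above background on both arrays of each group. It was -4.70 and -4.72 in Mbd2 KD and at the floor of -4.86 on all 6 arrays of the Mbd3, Tet1 and Dnmt1 KDs. Those 8 arrays lay below all 4 of EGFP KD and Chd4 KD. In Mbd3 KD the probe was well above background on 0 of 2 arrays, and in the KDs of Mbd2, Tet1 and Dnmt1 on 1 of 2 each. Gata3 thus passed the filter on dim probes only through EGFP KD and Chd4 KD, the groups where it was high. A low place in Mbd3 KD was favoured by that filter. Each Mbd3 KD array was given its own detection limit or signal, whichever was higher, as an upper bound. By the mean of the 2 log2 bounds, Gata3 was at least 2.34-fold lower than in EGFP KD. This holds for the mean of the pair and not for each array. The bound of replicate 2 was the floor of -4.86 itself, which alone gives a smaller difference. The fitted difference, -0.86 with a limma adjusted p of 0.035, is set by the floor, and with 6 of the 12 values there the spread of this gene is understated.

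With the floor 4 times lower the fitted Gata3 difference in Mbd3 KD was -2.23 and its adjusted p 0.10, and the call held in 5 of 23 alternatives, with all 23 in the same direction. By the same bound on the mean of the Mbd3 KD pair, Gata3 was at least 2.80-fold higher in Chd4 KD than in Mbd3 KD. The fitted difference, 1.12 with a limma adjusted p of 0.0084, is set by the floor too and was 2.49 with the floor 4 times lower. Gata3 was the 1 of 10 members called in this comparison, against 1.45% of all genes, and the filter on dim probes favoured that call. The count was 5 of 10 at an unadjusted p under 0.05, against 10.1%. On slide 3, which held an array of each, the Chd4 KD array lay 0.98 above the floor at which the Mbd3 KD array stood. This call held in 17 of 23 alternatives and was lost under quantile normalization, normexp, with only the 4 arrays, without either Mbd3 KD array (adjusted p = 0.062 and 0.055) and without both arrays that went against their labels (0.065).

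Hand1, a bHLH factor of trophoblast giant cells (chr11:57828713-57832147), ranged from -4.46 to -2.61. It was at -3.25 and -3.48 in EGFP KD, -4.37 and -4.46 in Mbd3 KD, and -2.61 and -3.01 in Chd4 KD. It was at -3.68 and -3.39 in Mbd2 KD, -3.63 and -3.65 in Tet1 KD, and -4.06 and -3.09 in Dnmt1 KD. The Mbd3 KD pair was the lowest of the 12 arrays and the Chd4 KD pair the highest. Against EGFP KD the difference was -1.05 ± 0.30 in Mbd3 KD (limma adjusted p = 0.25) and 0.55 ± 0.30 in Chd4 KD (0.58), so neither was called, and the latter turned to -0.44 under normexp. Chd4 KD against Mbd3 KD gave 1.61 ± 0.30, with a limma adjusted p of 0.063, and 1.45 on slide 3. That difference was past the threshold in 3 of 24 alternatives, with an adjusted p of 0.041 under array weights and 0.017 without either Dnmt1 KD array.

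Gata2, a further GATA factor of trophoblast (chr6:88193891-88207032), was at -3.41 and -3.31 in EGFP KD, -3.95 and -3.87 in Mbd3 KD, and -3.16 and -3.12 in Tet1 KD. The remaining 6 arrays lay between -3.74 and -3.45. The Mbd3 KD arrays were the lowest pair, and the arrays labelled Tet1 KD the highest. The difference in Mbd3 KD was -0.55 ± 0.12, with a limma adjusted p of 0.13, and it was negative in 24 of 24 alternatives. In the arrays labelled Tet1 KD it was 0.22 ± 0.12 (limma adjusted p = 1), and it turned to -0.09 under quantile normalization and -0.66 under normexp.

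Eomes, a T-box factor of trophoblast stem cells and early mesoderm (chr9:118478186-118486132), lay between -2.14 and -0.74 on the 12 arrays by its brighter probe. The lowest value was Dnmt1 KD replicate 2, while replicate 1 of that group was at -0.95. EGFP KD was at -1.29 and -1.33, and both Tet1 KD arrays (-0.82 and -0.74) and both Chd4 KD arrays (-0.77 and -0.97) were above it. The differences were 0.53 ± 0.37 in Tet1 KD and 0.43 ± 0.37 in Chd4 KD, and neither was called. The dimmer Eomes probe, well above background on 7 of 12 arrays, showed neither rise. It was at the floor on both Chd4 KD arrays and at -4.56 and -4.59 in Tet1 KD. In EGFP KD it was at the floor and at -4.09.

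Tead4, the TEAD factor at the head of the pathway (chr6:128227143-128300813), lay between -1.99 and -0.82. EGFP KD was at -1.605 and -1.433 and Mbd3 KD at -1.22 and -0.82, the latter both above the controls. The difference was 0.50 ± 0.26 in Mbd3 KD (limma adjusted p = 0.67) and 0.15 ± 0.26 in Chd4 KD. Its spread within groups, up to 0.405 (SD) in Dnmt1 KD, was close to the size of that difference.

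Cdx2 and Elf5 were at or near the floor throughout. Cdx2, the caudal homeobox factor that sets the trophectoderm apart (chr5:147300900-147307249), was well above background on 8 of 12 arrays, at a highest log2 signal of -4.44 in EGFP KD replicate 2. In Mbd3 KD it was above background on 0 of 2 arrays. The bound on the mean of the pair put it at least 1.57-fold lower than EGFP KD, and the fitted difference had a limma adjusted p of 0.75. For replicate 2 alone the bound was the floor of -4.86, close under EGFP KD replicate 1 at -4.78. A low Cdx2 signal was not particular to Mbd3 KD. In Chd4 KD, with 1 of 2 arrays above background, both were at the floor too, and the fitted difference was the same, -0.25. In the arrays labelled Tet1 KD it was -0.24, again with both below both controls. Elf5, an ETS factor that sustains trophoblast stem cells (chr2:103412098-103450989), was above background on 6 of 12 arrays. Only Chd4 KD, at -4.82 and -4.43, had both its arrays above background, and the gene passed the filter on dim probes through that group. Its highest value was -4.28, on Mbd3 KD replicate 1, and its difference from EGFP KD was 0.37 ± 0.22 in Mbd3 KD, 0.23 ± 0.22 in Chd4 KD and 0.20 ± 0.22 in Dnmt1 KD. The lowest limma adjusted p of these genes over the 5 KDs was 0.66, for Cdx2 in Chd4 KD.

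Counting members whose 2 KD arrays both lay on one side of both EGFP KD arrays gave 5 above and 4 below in Mbd3 KD, against 13.1% and 16.9% of all genes. The 5 above were Tfap2c, Krt8, Krt18, Tead4 and Elf5, and the 4 below were Gata2, Gata3, Hand1 and Cdx2, so that Eomes alone overlapped the controls. Gata3 and Cdx2 were at the floor on both Mbd3 KD arrays and passed the filter on dim probes through other groups, EGFP KD among them. Their place below was thus favoured by the filter. Elf5 had both its EGFP KD values at the floor and was well above background on 1 of 2 Mbd3 KD arrays. In Chd4 KD it was 5 above and 2 below, against 19% and 18.8% of all genes. The 2 below were Gata2 and Cdx2, with Cdx2 at the floor on both Chd4 KD arrays. The 5 above include Elf5, which passed the filter only through Chd4 KD while both its EGFP KD values were at the floor, so that its place there was favoured by the filter. Mbd2 KD had 0 above and 3 below (10.5% and 12.4% of all genes), Tet1 KD 3 above and 5 below (23.2% and 12%) and Dnmt1 KD 0 above and 2 below (10.6% and 10.4%). Those below were Gata2, Gata3 and Krt8 in Mbd2 KD and Gata2 and Gata3 in Dnmt1 KD. In Tet1 KD they were Cdx2, Gata3, Krt8, Krt18 and Hand1. Gata3 passed the filter only through EGFP KD and Chd4 KD, so its place below in each of these KDs was favoured by the filter. All 5 comparisons share the same 2 EGFP KD arrays. Between Mbd3 KD and Mbd2 KD, 0 of 10 members were called, against 0.523% of all genes, and 5 of 10 had an unadjusted limma p under 0.05, against 6.88%.

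**Figure D4:**
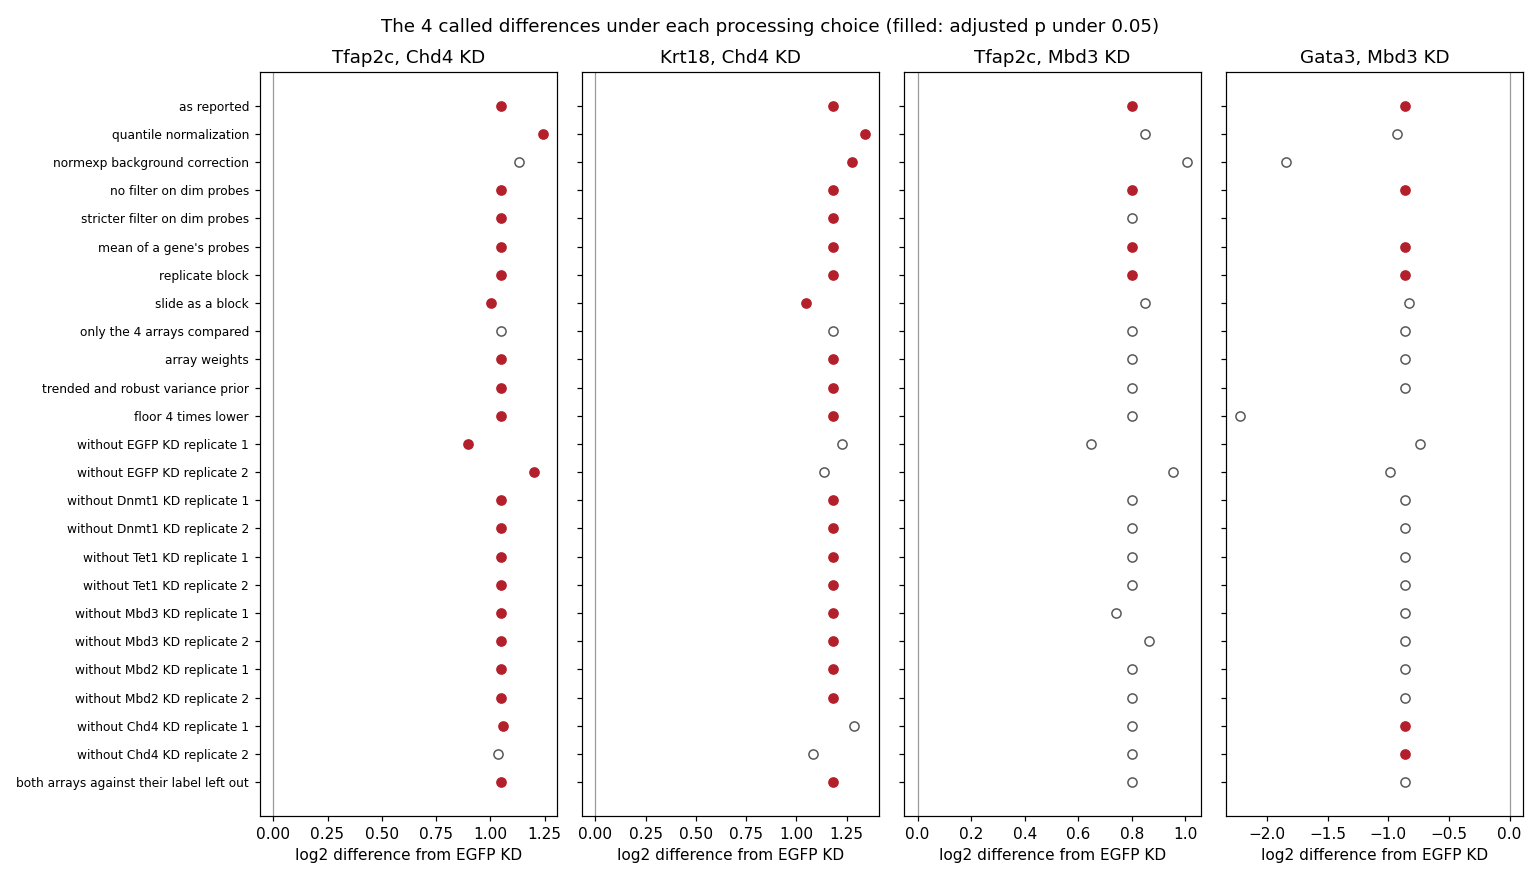
Log2 difference from EGFP KD (x axis) of the 4 called member and KD pairs under each processing choice (y axis), filled red where the adjusted p was under 0.05 and open otherwise. All points of a pair lie on the same side of 0, filled points predominate for Chd4 KD, and open points predominate for Mbd3 KD.

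Other genes of the same biology were read from lists written from general knowledge, with earlier results of these data known. Their counts are therefore a description. Of 20 trophoblast genes beside the members 19 were tested, and 1 rose and 0 fell in each of Mbd3 KD and Chd4 KD, where 0.764% and 3.19% of all genes were called. The median log2 difference of the list was 0.19 in Chd4 KD and -0.0049 in Mbd3 KD, beside 0.00 and -0.03 over all genes. Esx1, a placental homeobox gene on the X chromosome, was at -3.30 and -3.73 in EGFP KD and at -1.04 and -0.89 in Chd4 KD, a difference of 2.55 ± 0.18 (limma adjusted p = 0.0013), called in 22 of 24 alternatives. In Mbd3 KD it was at -2.68 and -2.59, and Chd4 KD exceeded Mbd3 KD by 1.67 ± 0.18 (limma adjusted p = 0.0087). Rhox6, a placenta and germ cell homeobox gene, was at 0.17 and 0.14 in EGFP KD and 1.42 and 1.94 in Mbd3 KD, a rise of 1.52 ± 0.23 (limma adjusted p = 0.040). That call held in 6 of 24 alternatives and was lost without both arrays that went against their labels (adjusted p = 0.11). It was at 0.61 and 0.71 in Chd4 KD and was not called there.

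Among 11 Hippo pathway genes and Tead partners, all tested, 0 rose and 2 fell in Chd4 KD (3.19% of all genes called) and 0 were called in Mbd3 KD (0.764%). Yap1, the coactivator of Tead4, was at 3.69 and 3.70 in EGFP KD and 2.50 and 2.87 in Chd4 KD, a difference of -1.01 ± 0.19 (limma adjusted p = 0.042). Nf2, an upstream activator of the Hippo kinases, went from 1.90 and 1.72 to 0.65 and 0.92, a difference of -1.02 ± 0.13 (limma adjusted p = 0.0092). The Nf2 call held in 19 of 24 alternatives and the Yap1 call in 11, and both were lost without the 2 arrays that went against their labels (adjusted p = 0.060 and 0.10). Both also differed between Chd4 KD and Mbd3 KD, Yap1 by -1.098 ± 0.19 (limma adjusted p = 0.0497) and Nf2 by -0.78 ± 0.13 (0.045), each called in 3 of 24 alternatives. The median log2 difference of this list in Chd4 KD was -0.09.

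Of 15 other keratin and junction genes, all tested, 4 rose and 0 fell in Chd4 KD, against 3.19% of all genes called, and 1 rose and 0 fell in Mbd3 KD, against 0.764%. The median log2 differences were 0.41 and 0.42, beside 0.00 and -0.03 over all genes. Krt19, a type I keratin of simple epithelia, was at -0.33 and -0.06 in EGFP KD, 2.12 and 3.04 in Chd4 KD and 1.19 and 1.43 in Mbd3 KD. Its rise was 2.77 ± 0.42 in Chd4 KD (limma adjusted p = 0.018), and it was not called in Mbd3 KD. Cldn7, a tight junction claudin, rose by 1.40 ± 0.27 in Chd4 KD (limma adjusted p = 0.041) and by 1.90 ± 0.27 in Mbd3 KD (0.036), on which arrays it was at 1.26, 1.81, 1.69 and 2.37 against 0.25 and 0.01 in EGFP KD. Cldn6, a claudin of early embryonic epithelia, rose by 0.69 ± 0.13 and the desmosome plaque gene Dsp by 0.66 ± 0.11 in Chd4 KD. In Chd4 KD the calls of Krt19, Dsp, Cldn7 and Cldn6 held in 20, 15, 10 and 6 of 24 alternatives, and without both arrays that went against their labels only that of Krt19 of these 4 did (adjusted p = 0.047). In Mbd3 KD the Cldn7 call held in 6 of 24 and was lost without those arrays (adjusted p = 0.15). In the KDs of Mbd2, Tet1 and Dnmt1, 0 genes of these 3 lists were called.

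Markers of other cell types were read beside the members. Of the primitive endoderm markers 6 of 6 were tested and 0 called, with summed scaled signals of 0.907 to 1.496 in EGFP KD, 1.101 to 1.515 in Chd4 KD and 1.07 to 1.36 in Mbd3 KD. At an unadjusted limma p under 0.05 the count was 3 of 6 in Chd4 KD (12.8% of all genes) and 2 of 6 in Mbd3 KD (9.66%). The median log2 difference was 0.31 in Chd4 KD (range -0.41 to 1.41) and 0.10 in Mbd3 KD (range -1.09 to 1.36). Of the mesoderm and primitive streak markers 5 of 6 were tested and 0 called, and T was well above background on 2 of 12 arrays. Of the mature trophoblast markers 4 of 5 were tested and 0 called, and the 3 measured on all arrays summed to 10.3 to 13.6 in EGFP KD, 10.1 to 11.2 in Chd4 KD and 12.5 to 15.2 in Mbd3 KD. Their sum was 15.6 to 20.4 in Dnmt1 KD, 11.9 to 14.3 in Tet1 KD and 13.6 to 15.4 in Mbd2 KD. Tpbpa was above background on 6 of 12 arrays. Of the fibroblast markers 4 of 5 were tested, 1 rose and 0 fell in Chd4 KD (3.19% of all genes called), and their sum was 1.11 to 1.47 in EGFP KD and 0.906 to 1.67 in Chd4 KD. The median log2 difference of the 4 in Chd4 KD was -0.38, with -0.02 for Col1a2, -0.74 for Col3a1 and -1.07 for Lum, none of them called. Col1a1, the other one, rose in Chd4 KD from -4.29 and -4.41 to -1.80 and -1.90, by 2.49 ± 0.21 (limma adjusted p = 0.0020), and Postn was above background on 0 arrays. The part of other cell types in the members' changes was not tested.

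For each called member the 2 genes with the most similar profile over the 12 arrays, among 19164 with a symbol, were found as a description, since the arrays share groups and slides. For Tfap2c they were Tek (Pearson's r = 0.97), a receptor of angiopoietins, and Tspan6 (0.97), a tetraspanin. For Krt18 they were Fabp5 (0.97), a fatty acid binding protein, and Zfp750 (0.97), a zinc finger factor of epithelia. For Gata3 they were Tmem109 (0.91) and Pisd (0.88), a mitochondrial decarboxylase, although 6 of the 12 Gata3 values were equal at the floor. In Chd4 KD, Tek differed from EGFP KD by 1.18 and Fabp5 by 1.04 on the log2 scale, beside 1.05 for Tfap2c and 1.18 for Krt18. Both were picked for their likeness over these same arrays, so a similar difference follows from the choice.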

How the data were processed

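RNA was labelled with one dye and hybridised to 12 Agilent mouse arrays, and the authors read the spots with Agilent Feature Extraction 10.7.1.1. The deposited scanner files give each spot's processed intensity, already background-corrected by that software but with no scaling across arrays. A second deposited file holds one log2 value per transcript and KD array, set against EGFP KD, whose exact scale is not given in the sources used here. Its columns correlated with the differences computed here at r = 0.55 to 0.89 with slopes of 0.081 to 0.112 and medians between -0.010 and 0.005, so the direction was read from it and the size was not.

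From 43020 spots (1377 control spots apart), values flagged as outliers were dropped. Intensities were scaled to the 75th percentile of each array, floored at 0.0344, taken to log2 and averaged over the spots of a probe (39429 probes). A probe needed to be well above background in both replicates of some group, and a gene was represented by its brightest such probe. Gene symbols came from RefSeq's GRCm38.p6 annotation, through the accession on the array, for 71.4% of spots.

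Groups were taken from the sample titles. The 6 groups entered one linear model (limma 3.58.1, run under R 4.3.3), whose steps were tested on simulated data, with Benjamini-Hochberg adjustment. The members and lists were chosen with earlier results of these data known, and the lists of trophoblast, Hippo, keratin and junction genes and of cell type markers were written from general knowledge. The genes named are the 10 members, the 5 targeted genes, the 2 genes most like each called member and up to 4 called genes of each list by size of difference. Col1a1 was named as the called gene of a marker list. Markers at or near background and genes of uncalled lists were named after their values were seen. Alternatives were quantile normalization, normexp (offset 50, on the median signal), other filters and floors, probes tested singly or averaged per gene, blocks for replicate number or slide, 4 arrays alone, array weights, a trended and robust prior, the deposited table and each array left out. The number of arrays limits the precision.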

Additional observations from a re-analysis of the deposited data

Results flagged for a closer look

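Gata3 differed between Chd4 KD and Mbd3 KD in the test of that difference itself, by 1.12 on the log2 scale (limma adjusted p = 0.0084), with both Mbd3 KD values at the floor, and by 2.49 with the floor 4 times lower. It passed the filter on dim probes only through EGFP KD and Chd4 KD, so this difference was favoured by the filter, and the equal values at the floor understate its spread. The following members lay above both EGFP KD arrays on both arrays of one KD and below both on both arrays of another. Hand1 was 1.61 higher in Chd4 KD than in Mbd3 KD (tested, limma adjusted p = 0.063) and 0.83 higher in Chd4 KD than in Tet1 KD. Krt8 was 1.57 higher in Mbd3 KD than in Tet1 KD and 1.25 higher than in Mbd2 KD (tested, limma adjusted p = 0.21). Krt18 was 1.34 higher in Chd4 KD and 0.74 higher in Mbd3 KD than in Tet1 KD. Gata2 was higher in Tet1 KD than in the KDs of Chd4, Mbd2, Dnmt1 and Mbd3, by 0.37, 0.47, 0.48 and 0.76. Its place above the controls in Tet1 KD turned under quantile normalization (-0.09), under normexp (-0.66) and in the deposited table (-0.0075). That of Hand1 in Chd4 KD turned under normexp (-0.44), as did that of Krt18 below them in Tet1 KD (0.0025). Those given without a p were not tested as differences. The values for Tet1 KD and Mbd2 KD include the array of each that went against its label and on which the other group's targeted mRNA was low.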

How the results depend on the processing

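The count of members called in Mbd3 KD, 2 as reported, fell to 0 under quantile normalization, normexp, the stricter filter, a slide block, only the 4 arrays compared, array weights, the trended and robust prior, the lower floor, and without both arrays that went against their labels, and it was 6 at an unadjusted p under 0.05. Leaving out 1 array at a time gave 0 to 1. In Chd4 KD, 2 as reported, it was 1 under normexp, 0 with only the 4 arrays and 0 to 2 with 1 array left out. Between Chd4 KD and Mbd3 KD, 1 as reported, it was 0 under quantile normalization, normexp, the stricter filter (which removes Gata3), only the 4 arrays and without both doubted arrays, 2 under array weights, 5 unadjusted, and 0 to 2 with 1 array left out. Between Mbd3 KD and Mbd2 KD, 0 as reported, it was 1 with no filter and 5 unadjusted, and in the KDs of Mbd2, Tet1 and Dnmt1 it was 1 unadjusted and 0 otherwise. The cause of these changes was not tested. With only the 4 arrays compared, 0 genes of any kind were called in either KD.

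None of the 4 called member differences from EGFP KD, nor the called Gata3 difference between Chd4 KD and Mbd3 KD, changed direction under the alternatives run. The called list genes kept their direction in 24 of 24 alternatives each, the deposited table and single probes not being among these. In the deposited table, which held 7 of the 10 members, all 4 called differences had the same direction, as did 29 of 35 in all. Normexp moved the median of all genes by -0.32 to -0.37 in the 5 KDs, to which member changes under it are relative. Same-numbered replicates deviated together (correlation over 0.1) in 10 of 15 pairs of groups, with values from -0.04 to 0.77. Several same-numbered arrays also shared a slide, and what the correlations reflect was not tested, so the numbers were not shown to pair the samples. The fit as reported had no block for replicate number or slide. With the replicate block the counts were 2 in Mbd3 KD, 2 in Chd4 KD and 1 between them, as without it. Where an array is left out, the other one of its group is assumed to vary like the other groups. Cdx2, Elf5 and Gata3 were limited by signal over background, and their sizes depend on the floor.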
